A study of Mus musculus with 8 samples.

Results

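The autophagy machinery was followed here as 43 genes, chosen by their symbols: the kinase complex that starts an autophagosome, the lipid kinase complex, the proteins that supply membrane, the conjugation enzymes, the Atg8 family, cargo receptors, and a few genes of fusion and transcriptional control. All 43 were found among the 43629 genes counted in the series, and all 43 passed the filter on low counts that left 17129 genes for testing. The series holds RNA sequencing of lower molars, left and right pooled, from mouse embryos at E18.5. The 4 mutants carried K14:cre and Jagged1 fl/fl, and the 4 controls carried Jagged1 fl/fl without the Cre, so that both groups shared the floxed Jagged1 alleles, while the methods of the study call the controls wild-type littermates. The keratin 14 promoter drives the recombinase in epithelium, and the whole molar was sequenced, so the mesenchyme, in which the promoter is not expected to act, is part of every value. The question of the study was how loss of the Notch ligand Jagged1 from dental epithelium changes the molar, and the comparison is mutant against control. Each embryo is 1 sample, p-values measure the spread between these embryos, and litter and sex are not given in the labels.

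Autophagy carries portions of cytoplasm, organelles or protein aggregates to the lysosome inside a double membrane, the autophagosome. The Ulk kinase complex and the class III phosphatidylinositol 3-kinase (PI3-kinase) complex mark the site where the membrane grows, Atg9 and Atg2 proteins bring and transfer lipid, and a ubiquitin-like conjugation system attaches Atg8 proteins (the LC3 and GABARAP families) to that membrane, where receptors hand over cargo. In the tooth, ameloblasts and odontoblasts secrete the matrices of enamel and dentin and depend on heavy membrane traffic. RNA levels of these genes do not measure autophagic flux, which is set largely by modification and turnover of the proteins.

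Levels are given as counts-per-million values (CPM) after trimmed-mean scaling of library sizes, always in the order J3, J5, J6 and J7 for controls and K14J26, K14J28, K14J29 and K14J30 for mutants. Depth was between 17327224 and 28613574 counts in controls and between 24692128 and 29792467 in mutants, and 3 counts in a library stood for 0.0998 to 0.166 CPM. Jag1, the deleted gene, was at 95.2, 103, 104 and 99.8 CPM in the controls and 34.0, 38.9, 45.9 and 57.1 CPM in the mutants, and it fell by 1.19 on the log2 scale (SE 0.14, adjusted p = 0.00517 in edgeR's quasi-likelihood test). The mutants varied in their enamel genes: Amelx, Ambn and Enam made up 9.57% of the counts of K14J26, 2.47% of those of K14J29, 0.965% for K14J30 and 0.356% for K14J28, and at most 0.329% in a control. Of the 7 enamel markers 6 were tested and 5 rose, their summed level ran from 711 to 3421 CPM in controls and from 3957 to 114680 CPM in mutants, and Amtn was at 0 counts in J6. Markers of dental epithelium summed to 5176 to 5950 CPM in controls and 5938 to 8579 CPM in mutants, with 1 of 6 called, Krt14, higher. Odontoblast markers summed to 6173 to 11699 against 11323 to 35175 CPM, with 4 of 5 called, all higher. Dental mesenchyme markers were present in all embryos, at 1194 to 1333 against 1158 to 1386 CPM, with 1 of 5 higher and 2 lower. Skeletal muscle transcripts stood at 391.6 CPM in J6 and 193 CPM in J7 and at no more than 19.9 CPM elsewhere, macrophage and osteoclast markers reached 1410.2 CPM in K14J28 against 222 to 482 CPM in the other embryos, and Xist was at 1928 CPM in K14J28 and 1467 CPM in K14J29 against at most 1.09 CPM in the others. Fits with enamel, skeletal muscle or Xist levels as a covariate are given below. They do not settle what part these differences had in the results on autophagy genes, and the part of the other differences was not tested. In bulk tissue fewer cells of a type and less RNA per cell cannot be told apart.

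Autophagy genes that changed past the threshold all moved one way. At an adjusted p under 0.05, 12 of the 43 were higher in the mutants and 0 were lower, beside 9.52% of all genes tested that were higher and 6.61% that were lower. The 12 made up 27.9% of the members and came from each of the 7 roles: Ulk2, Pik3r4, Atg9a, Atg2a, Atg2b, Atg16l2, Atg4c, Gabarapl2, Nbr1, Optn, Epg5 and Cisd2. Their differences were modest, between 1.19-fold for Pik3r4 and 1.74-fold for Atg4c. For 0 lower members the same test gave 1 gene, Atg10, at an unadjusted p of at most 0.05, and DESeq2 also gave 0 lower. The count depends on the scaling. With library size scaling 6 of the 12 were higher and 0 members lower, beside 864 genes of all higher and 1065 lower. The median log2 fold change of the members was then 0.07, and that of all genes -0.09.

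At looser thresholds the direction of most members was the same. At an adjusted p under 0.1, 19 were higher and 1 was lower, beside 15.6% and 12.1% of all genes. At an unadjusted p of at most 0.05, 21 were higher and 1 was lower, beside 19.1% and 15.7% of all genes. Controls and mutants were fully separated for 17 members, all higher in mutants, while for all genes 12.6% stood apart upward and 11.6% downward. The study's methods ask for p no higher than 0.05 together with a fold change of at least 0.5, read here as an unadjusted p and the size of the log2 fold change, and by these criteria 4 members were higher (Atg9b, Atg16l2, Atg4c and Epg5) and 0 lower, which is close to the 8.33% of all genes that were higher and beside 5.85% that were lower. The log2 fold change was positive for 34 members and negative for 9, with a median of 0.18 over the members and 0.01 over all genes tested. Autophagy is a theme that the study drew from these same embryos, so the direction of the members is no independent evidence.

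**Figure D1:**
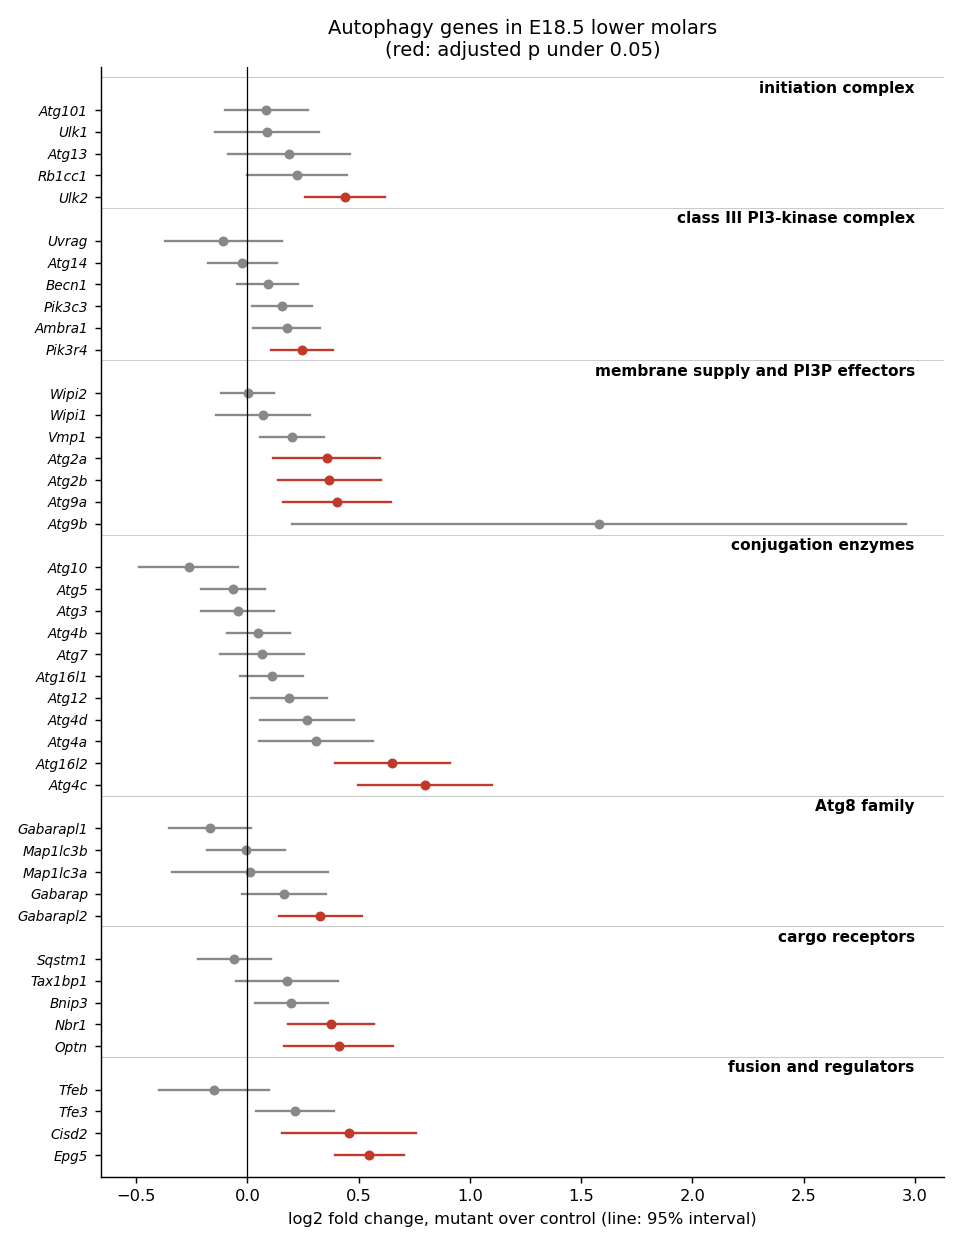
Log2 fold change of each of the 43 autophagy genes (x axis, mutant over control), grouped by role, with points for the estimate and lines for the 95% interval. The 12 genes with an adjusted p under 0.05, in red, all lie to the right of 0, and the widest interval is that of Atg9b, from 0.20 to 2.96.

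Tfeb and Tfe3, transcription factors that activate lysosomal and autophagy genes, bind an E-box whose core is CACGTG, and the promoters of the members were read for these letters. RefSeq windows on build GRCm38.p6, from 250 bases before to 50 bases after a transcription start, were at hand for 36 of the 43 members. CACGTG, which is its own reverse complement and so covers both strands, was present in 5 of the 36 (13.9%) and in 8.09% of all 27025 genes with such windows. The longer form TCACGTGA, which contains it, was present for Atg3 and in 1.12% of all genes. Of the 11 members with an adjusted p under 0.05 and a promoter at hand, 0 held CACGTG in this window. At the 8.09% share of all genes, few of 11 genes would hold it, and neither count was tested. Shown first are 4 members that hold it, each from 140 bases before the start, 5′ to 3′ on the strand of the gene, with CACGTG in capitals.
Atg3 (chr16:45158689-45158838, plus strand): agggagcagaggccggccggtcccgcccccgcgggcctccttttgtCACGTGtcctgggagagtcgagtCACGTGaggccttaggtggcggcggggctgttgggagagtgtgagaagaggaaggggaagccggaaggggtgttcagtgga
Atg5 (chr10:44268199-44268348, plus strand): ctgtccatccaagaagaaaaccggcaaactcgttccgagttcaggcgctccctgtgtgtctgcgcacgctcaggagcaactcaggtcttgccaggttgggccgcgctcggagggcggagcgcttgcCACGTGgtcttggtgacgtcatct
Atg14 (chr14:47568425-47568574, minus strand): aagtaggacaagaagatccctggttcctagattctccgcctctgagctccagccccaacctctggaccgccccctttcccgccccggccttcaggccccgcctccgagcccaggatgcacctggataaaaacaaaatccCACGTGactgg
Bnip3 (chr7:138909497-138909646, minus strand): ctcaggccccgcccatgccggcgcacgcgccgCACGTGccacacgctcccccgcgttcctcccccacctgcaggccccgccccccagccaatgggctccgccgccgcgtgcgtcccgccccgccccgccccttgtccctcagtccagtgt
CACGTG begins at positions -94 and -71 from the start in Atg3, at -14 in Atg5, at -1 in Atg14, at -108 in Bnip3 and, in a window not shown, at -132 in Atg7. The Atg7 window (chr6:114670956-114671105, plus strand) follows a RefSeq start inside the gene, which is annotated from 114643097. That of Atg14, on the minus strand, also lies inside the gene, which is annotated up to 47570649. For comparison, 3 members that rose by the test are shown over the same span, without the motif.
Ulk2 (chr11:61855083-61855232, minus strand): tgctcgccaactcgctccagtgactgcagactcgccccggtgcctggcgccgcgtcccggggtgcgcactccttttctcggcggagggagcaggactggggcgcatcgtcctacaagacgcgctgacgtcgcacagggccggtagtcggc
Atg16l2 (chr7:101302079-101302228, minus strand): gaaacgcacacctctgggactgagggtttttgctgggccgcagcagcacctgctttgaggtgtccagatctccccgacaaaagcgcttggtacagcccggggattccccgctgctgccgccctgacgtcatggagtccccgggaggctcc
Atg4c (chr4:99194007-99194156, plus strand): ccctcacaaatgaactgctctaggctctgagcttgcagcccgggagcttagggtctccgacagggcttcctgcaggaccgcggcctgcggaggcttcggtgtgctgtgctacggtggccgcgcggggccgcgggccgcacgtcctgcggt
The second RefSeq start of Atg4c is shown. A match of 6 letters is a description of the sequence, and its absence says only that these letters are not in this window. Of the 5 members with the motif, Bnip3 had a log2 fold change of 0.20 (95% interval 0.03 to 0.36, adjusted p = 0.0905), and those of Atg3, Atg5, Atg7 and Atg14 lay between -0.06 and 0.07.

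The counts given for each role below are to be read against the 9.52% of all genes tested that were higher. The roles hold few genes, and no role was tested against that share. In the initiation complex 1 of 5 genes rose, Ulk2 (ENSMUSG00000004798, chr11:61775649-61855073, annotation on GRCm38), a kinase that starts autophagosome formation beside its paralogue Ulk1. Ulk2 was at 66.6, 76.2, 75.7 and 69.5 CPM in the controls and 105, 89.1, 106 and 90.8 CPM in the mutants. All 4 mutants lay above all 4 controls, with K14J26 and K14J29 highest, and the fold was 1.35, a log2 fold change of 0.44 (SE 0.08, adjusted p = 0.0138). Ulk1, the kinase most often studied in starvation, was at 81.1, 84.1, 84.9 and 80.9 CPM in the controls and 105, 71.4, 88.6 and 86.9 CPM in the mutants, where K14J28 was below every control and the other 3 mutants above every control. Its log2 fold change was 0.09 (95% interval -0.14 to 0.32, adjusted p = 0.575). Rb1cc1 (FIP200), the scaffold of the complex, had 0.22 (95% interval -0.003 to 0.45), and the adaptor subunits Atg13 and Atg101 had 0.19 and 0.09, neither past the threshold. On the scale of CPM per kilobase of exon, the control means of these 5 genes lay between 5.52 for Rb1cc1 and 12.8 for Ulk1.

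In the class III PI3-kinase complex 1 of 6 genes rose, Pik3r4 (ENSMUSG00000032571, chr9:105642978-105687657), the regulatory subunit also called Vps15. Pik3r4 was at 36.5, 34.0, 34.8 and 35.4 CPM in the controls and 43.7, 42.3, 42.3 and 38.6 CPM in the mutants. Controls stayed between 34.0 and 36.5 CPM and every mutant was above them, K14J30 least, with a log2 fold change of 0.25 (SE 0.06, adjusted p = 0.032). Pik3c3 (Vps34), the catalytic subunit, was at 35.8, 39.9, 37.4 and 38.6 CPM in the controls and 41.7, 43.2, 42.8 and 41.3 CPM in the mutants. Its groups also did not overlap, and its log2 fold change was 0.16 (95% interval 0.02 to 0.29, adjusted p = 0.0979). Ambra1, which links this complex to Ulk1, stood apart between groups too, at 0.18 (adjusted p = 0.0952). Becn1, the core scaffold, was the most abundant of the 6 at 19.5 CPM per kilobase in controls, and its log2 fold change was 0.09 (95% interval -0.05 to 0.23, adjusted p = 0.314). It shares 3104 of its 7065 exon bases with Cntd1 on the other strand, at a mean of 5.53 CPM. Atg14, the subunit that directs the complex to autophagy, had -0.02 (95% interval -0.18 to 0.13), and Uvrag, which takes its place in endosomal complexes, had -0.11 (95% interval -0.37 to 0.16), the lowest value of this role.

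Of the 7 genes of membrane supply, 3 rose (42.9%), beside 9.52% of all genes tested. This was the largest number in a role, while the largest share was that of fusion and regulation, with 2 of 4 (50%). Atg9a (ENSMUSG00000033124, chr1:75180860-75192196), the lipid scramblase carried on small vesicles, was at 43.6, 45.5, 49.2 and 43.4 CPM in the controls and 72.4, 50.1, 60.9 and 57.0 CPM in the mutants. All mutants were above all controls, K14J26 highest and K14J28 just above J6, with a log2 fold change of 0.40 (SE 0.11, adjusted p = 0.036). Exons of Atg9a share 1832 bases with Gm29253, a processed transcript on the same strand with a mean of 51.6 CPM, and 46 bases with Ankzf1 on the other strand, and how such reads were assigned is not known, so the value of Atg9a is uncertain. Atg2a (ENSMUSG00000024773, chr19:6241668-6262335) and Atg2b (ENSMUSG00000041341, chr12:105616136-105685211) encode the lipid transfer proteins that feed the growing membrane. Atg2a was at 27.0, 30.4, 31.2 and 28.9 CPM in the controls and 45.9, 33.2, 36.3 and 35.2 CPM in the mutants. Atg2b was at 51.8, 49.0, 53.4 and 54.5 CPM in the controls and 82.2, 62.3, 66.3 and 58.8 CPM in the mutants. In both genes the groups did not overlap, K14J26 was well above the other mutants, and the log2 fold changes were 0.36 (SE 0.11, adjusted p = 0.04999) and 0.37 (SE 0.10, adjusted p = 0.0408). Atg2b shares 383 exon bases with Gskip on the other strand, at a mean of 14.4 CPM.

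Atg9b, the second Atg9 gene, had the largest log2 fold change of all members and the least certain one. It was at 0.553, 0.330, 2.02 and 0.236 CPM in the controls and 1.35, 3.62, 1.94 and 2.09 CPM in the mutants, from 7 to 109 counts in a library. J6 was above K14J26 and K14J29, so the groups overlapped, and the log2 fold change was 1.58 (SE 0.61, adjusted p = 0.103), past the study's criteria but not the adjusted threshold. Without J6 it was 2.64, with an adjusted p of 0.025. Its exons also overlap Nos3 on the other strand by 294 bases. Vmp1, an endoplasmic reticulum protein needed for the membrane to close and leave its platform, was at 69.8, 63.8, 62.0 and 60.1 CPM in the controls and 73.6, 72.2, 76.5 and 71.5 CPM in the mutants. The groups stood apart, J3 coming closest to the mutants, and the log2 fold change was 0.20 (95% interval 0.06 to 0.34, adjusted p = 0.0599), with a call under DESeq2. Wipi1 and Wipi2, which read the lipid mark left by the PI3-kinase, had 0.07 (95% interval -0.14 to 0.28) and 0.00 (95% interval -0.12 to 0.12).

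Among the 11 conjugation enzymes, 2 rose, and these were the 2 largest differences past the adjusted threshold. Atg4c (ENSMUSG00000028550, chr4:99193934-99259787), 1 of 4 proteases that trim Atg8 proteins and release them from membrane, was at 12.2, 10.6, 10.1 and 9.39 CPM in the controls and 14.4, 18.46, 20.9 and 19.6 CPM in the mutants. Every mutant was above every control, and K14J26, the embryo with the most enamel transcripts, was the lowest of the mutants. The fold was 1.74, a log2 fold change of 0.80 (SE 0.13, adjusted p = 0.0107). Atg16l2 (ENSMUSG00000047767, chr7:101263034-101302251), a paralogue of the platform protein Atg16l1, was at 7.58, 6.76, 7.73 and 7.63 CPM in the controls and 13.5, 10.3, 12.1 and 10.8 CPM in the mutants. Groups stood apart with K14J26 highest, and the fold was 1.57, a log2 fold change of 0.65 (SE 0.11, adjusted p = 0.0127). It shares 25 exon bases with Fchsd2, which lies on the other strand and is more abundant at a mean of 54.1 CPM.

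The other enzymes of this role did not pass the adjusted threshold. Atg16l1, at 4.96 CPM per kilobase in controls against 0.877 for Atg16l2, had 0.11 (95% interval -0.03 to 0.25, adjusted p = 0.242). The proteases Atg4a, Atg4b and Atg4d had 0.31 (adjusted p = 0.0915), 0.05 (adjusted p = 0.604) and 0.27 (adjusted p = 0.0776). Atg4d shares 1405 exon bases with Kri1 on the other strand, at a mean of 42.9 CPM, and its own reads cannot be told from those of Kri1 there. Atg7, the activating enzyme of both conjugation arms, had 0.07 (95% interval -0.12 to 0.25), and Atg3, which passes Atg8 to lipid, had -0.04 (95% interval -0.21 to 0.12). Atg5 and Atg12, the pair joined to each other, had -0.06 (95% interval -0.21 to 0.08) and 0.19 (95% interval 0.02 to 0.36). Atg10, which joins that pair, was the member nearest to a fall. It was at 13.7, 14.3, 13.3 and 12.1 CPM in the controls and 11.7, 12.1, 10.7 and 9.89 CPM in the mutants, so that J7 and K14J28 met at the edge of the groups, and the log2 fold change was -0.26 (95% interval -0.49 to -0.04, adjusted p = 0.0943).

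**Figure D2:**
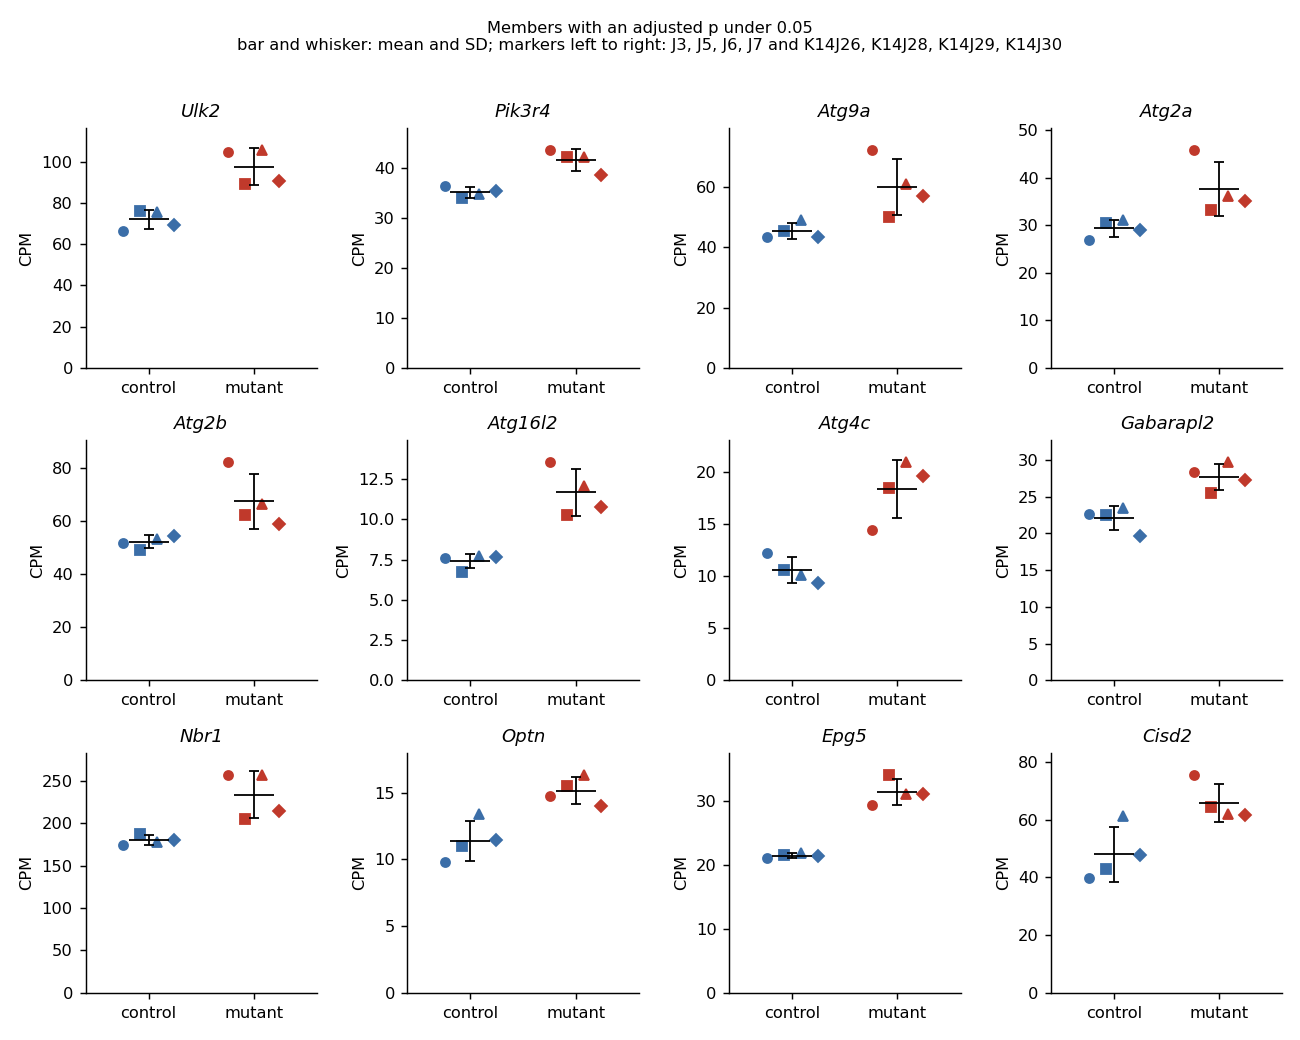
CPM (y axis, from 0) of the 12 autophagy genes with an adjusted p under 0.05 in each control (blue) and mutant (red) embryo, with the mean and SD of each group of 4. In every panel the lowest mutant lies above the highest control, by the least in Cisd2, where J6 was at 61.3 and K14J30 at 61.7 CPM.

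The Atg8 family, whose lipid-bound forms are the usual protein readout of autophagosomes, held 1 gene of 5 that rose. Gabarapl2 (ENSMUSG00000031950, chr8:111940703-111953612), also called GATE-16, was at 22.7, 22.5, 23.5 and 19.6 CPM in the controls and 28.3, 25.5, 29.7 and 27.3 CPM in the mutants. All mutants lay above all controls, and J7 was the lowest control, with a log2 fold change of 0.33 (SE 0.08, adjusted p = 0.0312). Map1lc3a (LC3A) was at 45.8, 48.2, 54.3 and 48.5 CPM in the controls and 66.3, 36.6, 49.4 and 46.4 CPM in the mutants. Mutants lay on both sides of the controls, K14J26 above and K14J28 below, and the log2 fold change was 0.01 (95% interval -0.34 to 0.36, adjusted p = 0.964). Map1lc3b (LC3B) was at 143, 148, 139 and 135 CPM in the controls and 155, 122, 147 and 139 CPM in the mutants. The groups overlapped and the log2 fold change was 0.00 (95% interval -0.18 to 0.17, adjusted p = 0.975).

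Gabarap, by CPM per kilobase the most abundant of all 43 members at 124 in controls, was at 232, 235, 236 and 211 CPM in the controls and 275, 217, 269.9 and 262 CPM in the mutants. In K14J28 it was within the controls and in the other 3 mutants above them, and the log2 fold change was 0.16 (95% interval -0.02 to 0.35, adjusted p = 0.191). Gabarapl1 was at 69.8, 63.3, 63.0 and 60.9 CPM in the controls and 61.1, 49.2, 59.0 and 59.6 CPM in the mutants. K14J28 was lowest, the groups overlapped at J7 and K14J26, and the log2 fold change was -0.17 (95% interval -0.35 to 0.02, adjusted p = 0.18). As shares of the 5 genes' CPM per kilobase, Gabarap went from 54.85% ± 0.722 to 57.9% ± 1.596 (SD, n = 4 each), Map1lc3a from 18.46% ± 1.26 to 17.35% ± 2.43, Gabarapl1 from 14.15% ± 0.798 to 11.9% ± 0.457, Map1lc3b from 8.34% ± 0.289 to 7.83% ± 0.206, and Gabarapl2 from 4.21% ± 0.152 to 4.998% ± 0.391. Gabarapl2, the member of the family that rose, was thus the least abundant of the 5 in both groups. These shares were not tested.

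Cargo receptors bind tagged cargo with one end and Atg8 proteins with the other, and 2 of 5 rose. Nbr1 (ENSMUSG00000017119, chr11:101552149-101581951), a receptor for ubiquitinated aggregates, was at 174, 188, 178 and 179.8 CPM in the controls and 257, 205, 257 and 214 CPM in the mutants. Mutants stood apart from controls, K14J26 and K14J29 highest, with a log2 fold change of 0.38 (SE 0.09, adjusted p = 0.0234). Optn (ENSMUSG00000026672, chr2:5020642-5064051), optineurin, a receptor for damaged mitochondria and bacteria, was at 9.80, 11.0, 13.4 and 11.4 CPM in the controls and 14.7, 15.5, 16.3 and 13.96 CPM in the mutants. J6 at 13.4 CPM came close to K14J30 at 13.96 CPM without overlap, with a log2 fold change of 0.41 (SE 0.11, adjusted p = 0.0365).

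Sqstm1 (p62), the receptor most used as a readout because it is itself degraded by autophagy, did not pass. It was at 182, 187, 196 and 185 CPM in the controls and 186, 157, 193 and 184 CPM in the mutants, with K14J28 the lowest of all 8 and the other mutants inside the controls. The log2 fold change was -0.06 (95% interval -0.22 to 0.10, adjusted p = 0.599). Sqstm1 shares 580 exon bases with Mrnip on the other strand, at a mean of 8.87 CPM. Tax1bp1, another receptor of ubiquitinated cargo, had 0.18 (95% interval -0.05 to 0.41) and was at 258, 264, 267 and 258 CPM in the controls and 362, 259, 297 and 265 CPM in the mutants. K14J26 and K14J29 lay above the controls, and K14J28 and K14J30 inside their range. Bnip3, a mitophagy receptor in the outer mitochondrial membrane, was at 35.1, 32.9, 38.0 and 33.8 CPM in the controls and 43.0, 38.2, 41.4 and 37.8 CPM in the mutants, and the groups overlapped at J6.

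**Figure D3:**
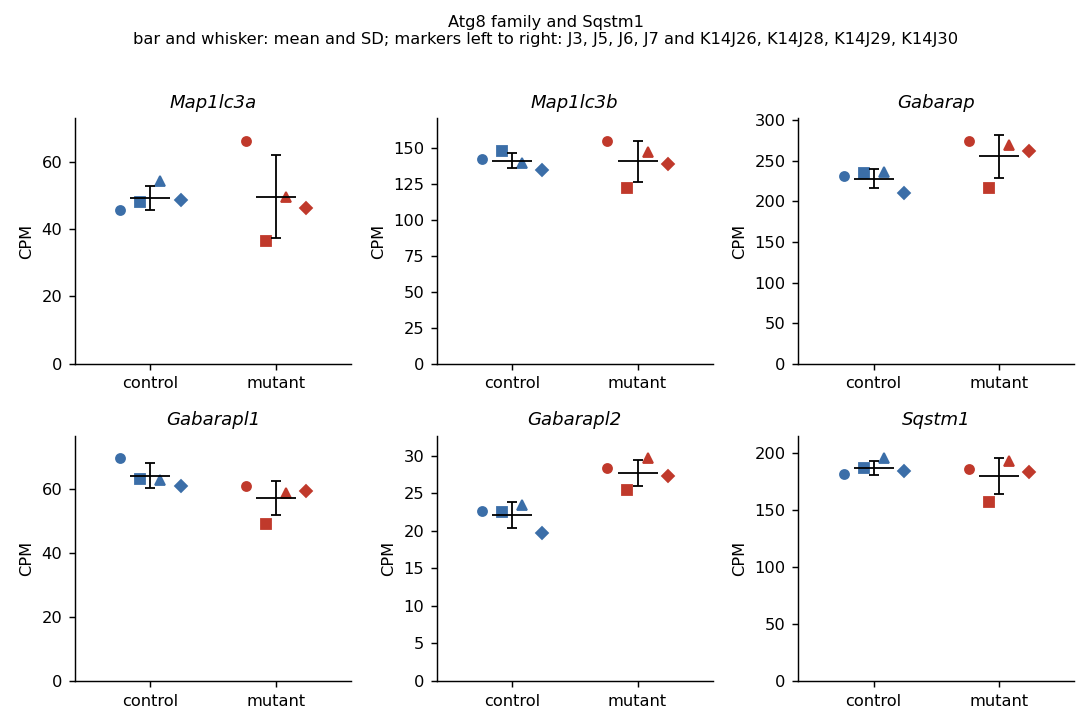
CPM (y axis, from 0) of the 5 Atg8 genes and Sqstm1 in each control (blue) and mutant (red) embryo, with the mean and SD of each group of 4. Gabarapl2 is the 1 panel of the 6 without overlap, and K14J28 is the lowest mutant in all 6.

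Among the 4 genes of fusion and regulation, 2 rose. Epg5 (ENSMUSG00000039840, chr18:77938465-78035013), the tether that makes autophagosomes fuse with late endosomes and lysosomes, had the smallest adjusted p of the members. It was at 21.1, 21.6, 21.9 and 21.4 CPM in the controls and 29.4, 34.2, 31.1 and 31.1 CPM in the mutants. Controls stayed within 1 CPM of each other and all mutants were well above, with K14J28 highest and K14J26 lowest, and the fold was 1.46, a log2 fold change of 0.55 (SE 0.07, adjusted p = 0.00551). Cisd2 (ENSMUSG00000028165, chr3:135406412-135423925), an iron-sulfur protein of the endoplasmic reticulum that works with Bcl-2 to restrain Becn1, was at 39.7, 42.9, 61.3 and 47.7 CPM in the controls and 75.6, 64.2, 61.9 and 61.7 CPM in the mutants. J6 was far above the other controls and nearly met the mutants, with a log2 fold change of 0.46 (SE 0.13, adjusted p = 0.0466). The transcription factor Tfeb was at 9.41, 9.601, 11.2 and 10.3 CPM in the controls and 9.85, 7.98, 9.94 and 8.73 CPM in the mutants, with K14J28 and K14J30 below the controls and the other mutants among them, and a log2 fold change of -0.15 (95% interval -0.40 to 0.10, adjusted p = 0.361). Tfe3, its relative, was at 40.6, 37.2, 44.3 and 40.1 CPM in the controls and 50.6, 42.6, 48.7 and 46.3 CPM in the mutants, with J6 overlapping the mutants, and a log2 fold change of 0.21 (95% interval 0.04 to 0.39, adjusted p = 0.0877).

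Where the machinery has paralogues, the balance between them was read as shares of their summed CPM per kilobase. The share of Atg4c among the 4 Atg4 genes went from 16.0% ± 1.16 to 22.75% ± 3.28 (SD, n = 4 each), while that of Atg4b went from 46.0% ± 2.10 to 39.0% ± 2.43. Atg16l2 went from 15.0% ± 0.781 to 20.4% ± 1.18 of the Atg16l pair. Ulk2 went from 48.5% ± 1.08 to 54.8% ± 2.65 of the Ulk pair, so that it was below Ulk1 in every control and above it in every mutant. In the Atg2 pair, where both genes rose, the share of Atg2a was 49.6% ± 2.07 and 49.4% ± 1.24. In the Atg9 pair Atg9b took 2.33% ± 2.27 and 5.43% ± 2.94. These shares are descriptions without a test, and exon lengths of whole genes stand in for the transcripts used.

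The mutant embryos were unequal. The median difference of the 43 members from their control mean, on the log2(CPM + 0.1) scale, reached 0.30 in K14J26, then 0.23 for K14J29, 0.12 for K14J30 and 0.07 for K14J28, with controls at -0.02 to 0.04. K14J26 was the highest mutant for 25 members (58.1%, against 35.8% of all genes) and K14J28 was the lowest for 25 (58.1%, against 30.8%). The order of the mutants in this median is also their order in enamel gene expression. This order of medians depends on the trimmed-mean scaling. Its factors rise in the same order, at 0.843 for K14J26, 0.969 for K14J29, 1.017 for K14J30 and 1.042 for K14J28. A lower factor raises every CPM of an embryo, and the controls had factors of 1.033 to 1.043. The medians per embryo on library size scaling were not read. A score of the 5 enamel genes Amelx, Ambn, Enam, Mmp20 and Klk4, the mean of log2(CPM + 0.1), stood at 11.8 for K14J26, 9.79 for K14J29, 8.18 for K14J30 and 6.95 for K14J28, and in the controls it lay between 4.74 and 6.88. Among the 12 called genes Atg9a, Atg2a, Atg16l2 and Nbr1 had this order of mutants and the other 8 did not, with Atg4c and Epg5 lowest in K14J26.

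**Figure D4:**
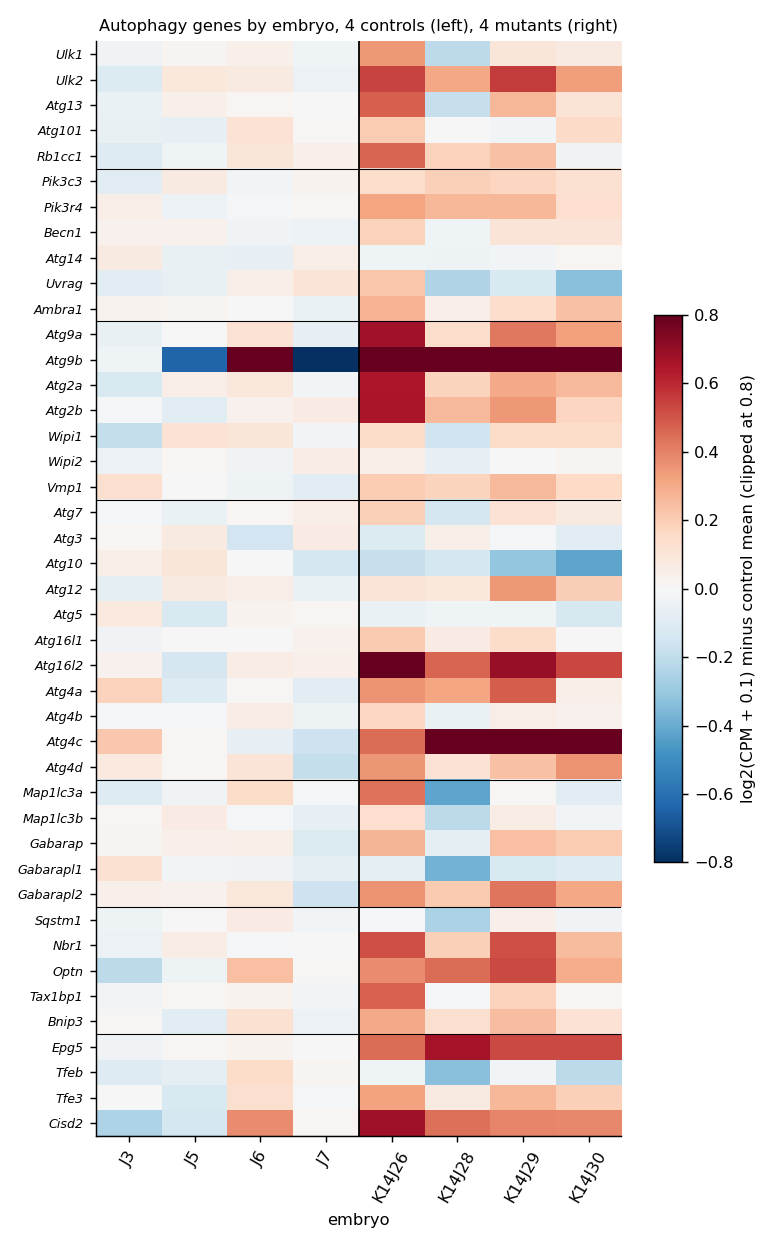
Difference of each autophagy gene from its control mean (colour, log2(CPM + 0.1), clipped at 0.8) in the 4 controls and 4 mutants, with lines between roles. With trimmed-mean scaling the mutant with the highest member median was K14J26, at 0.30, and the lowest was K14J28, at 0.07. In K14J28 Map1lc3a, Gabarapl1 and Tfeb stand out in blue.

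With the enamel score as a covariate, 2 members remained higher at an adjusted p under 0.05, Atg4c (log2 fold change 1.004, adjusted p = 0.0333) and Epg5 (0.65, adjusted p = 0.0187). Map1lc3a was lower in that fit (-0.54, adjusted p = 0.0403), and the median over the members was 0.03. At an unadjusted p of at most 0.05, 6 members were higher and 7 lower in it. In the same fit 186 genes of all tested were higher and 112 lower, against 1631 and 1133 without the covariate. Atg9a and Atg2a had the largest drops among the called genes, to 0.04 and 0.03. Atg16l2 went from 0.65 to 0.41, Optn from 0.41 to 0.32 and Pik3r4 from 0.25 to 0.21. Ulk2, Atg2b, Gabarapl2, Nbr1 and Cisd2 lay between 0.11 (Atg2b) and 0.22 (Ulk2). None of these genes was called in this fit. The score did not overlap between the groups, so the enamel score and the genotype cannot be told apart in this fit.

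**Figure D5:**
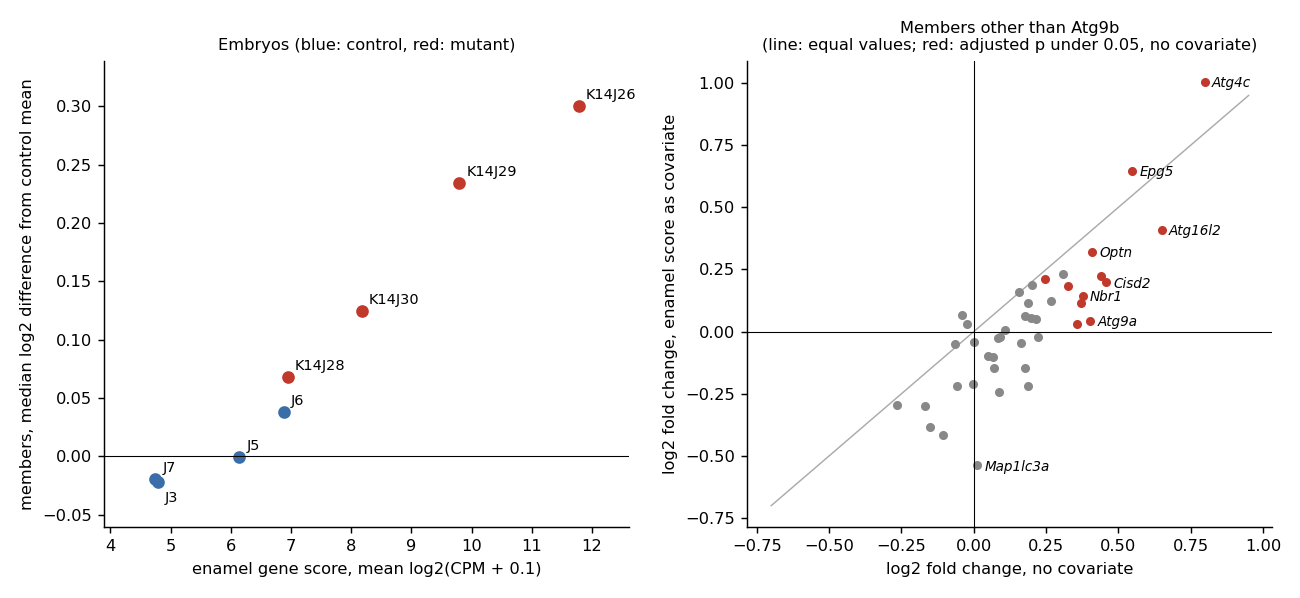
Left, the median log2 difference of the 43 members from the control mean (y axis) against the enamel gene score (x axis) in each embryo. With trimmed-mean scaling the 4 mutants (red) are in the same order on both axes. Right, the log2 fold change of each member other than Atg9b without (x axis) and with (y axis) the enamel score as covariate, where, of the 12 called genes, Atg4c and Epg5 lie above the line of equal values, and Map1lc3a lies at -0.54.

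Further genes of the pathway were read from lists outside the members. Over the 5 lists together 26 of 87 tested genes were higher (29.9%), against the 9.52% of all genes, and 5 were lower (5.75%), close to the 6.61% of all genes, and the counts of each list are to be read against the same 2 shares. Of 14 other core autophagy genes 3 rose and 0 fell. Rubcn, which encodes Rubicon, a negative regulator of the Uvrag-bound PI3-kinase complex, was at 29.1, 29.3, 29.04 and 27.1 CPM in the controls and 66.3, 40.7, 59.8 and 48.7 CPM in the mutants, without overlap, with a log2 fold change of 0.91 (SE 0.14, adjusted p = 0.00885). Tecpr1, a lysosomal protein that binds Atg5-Atg12 (0.78), and Trappc8, a subunit of a tethering complex (0.31), were the others. For 0 lower in this list, 0 genes were lower at an unadjusted p of at most 0.05.

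Of 14 tested genes of autophagosome-lysosome fusion 6 rose and 0 fell, with 0 lower at an unadjusted p of at most 0.05. They were Plekhm1, a Rab7 adaptor (0.54), Snap29, a SNARE of the fusion complex (0.39), and 4 subunits of the tethering complexes that share a Vps core, Vps18 (0.39), Vps39 (0.33), Vps33a (0.23) and Vps41 (0.21). Plekhm1 was at 20.8, 25.3, 24.9 and 24.9 CPM in the controls and 36.0, 34.2, 35.3 and 34.5 CPM in the mutants, with the 4 mutants within 2 CPM of each other. Of 14 other cargo receptors 3 rose, the glycogen receptor Stbd1 (0.72, groups overlapping), the ferritin receptor Ncoa4 (0.44) and Sec62 of the endoplasmic reticulum (0.38), and 1 fell, the mitochondrial prohibitin Phb2 (-0.27).

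The 37 genes of mTORC1 and AMPK control, the nutrient and energy sensors upstream of Ulk kinases, held 12 that rose and 3 that fell. The largest rises were Sesn2 (0.55) and Ddit4 (0.51), both stress-induced inhibitors of mTORC1, and Castor2, an inhibitor of mTORC1 signalling related to the arginine sensor Castor1 (0.50, groups overlapping). Mtor itself rose, at 61.6, 63.5, 63.3 and 67.9 CPM in the controls and 104, 80.1, 87.4 and 83.3 CPM in the mutants, with a log2 fold change of 0.47 (SE 0.09, adjusted p = 0.0142), as did Tsc1 (0.35), which restrains it. The 3 that fell were Rragd, a GTPase that recruits mTORC1 to lysosomes (-0.73), the AMPK subunit Prkab1 (-0.32) and Lamtor1 (-0.19), which anchors the Rag GTPases. Genes that activate and genes that inhibit mTORC1 were thus found on both sides. Of 8 transcription factors linked to autophagy, Foxo1 (0.52) and the repressor Zkscan3 (0.30) rose and Foxo6 (-0.76), at under 4 CPM, fell. Mtor, Tsc1, Vps39, Vps33a and Vps41 were named after their values were seen.

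Single embryos decided much of the count, among the members and among all genes. Leaving out each embryo in turn gave 3 to 17 higher members and 0 lower, 3 without J7 or K14J29, 4 without J3 or J5, 7 without J6, 9 without K14J30, 11 without K14J26 and 17 without K14J28. The higher calls over all genes moved with these counts. They were 250 of 16936 without K14J29, 300 of 16951 without J7, 373 of 17100 without J3 and 451 of 17018 without J5. They were 853 of 17051 without J6, 1337 of 16994 without K14J30, 1746 of 16994 without K14J26 and 2479 of 16954 without K14J28. Lower calls over all genes ran from 170 without K14J29 to 1845 without K14J28. Epg5, Atg4c and Atg16l2 were called in all 8, Ulk2 in 6, Optn in 4, Pik3r4, Atg2b and Nbr1 in 3, and Atg9a, Atg2a, Gabarapl2 and Cisd2 in 2. The log2 fold changes of the 12 lay between 0.218 (Pik3r4) and 0.898 (Atg4c) in these 8 fits. That of Ulk2 ran from 0.399 to 0.475, that of Nbr1 from 0.327 to 0.428 and that of Atg2a from 0.248 to 0.407. Without both controls with muscle transcripts, J6 and J7, 0 members were called by edgeR and 3 genes of all were higher, 15 members were higher at an unadjusted p of at most 0.05, and the direction of the 12 was unchanged, with log2 fold changes between 0.24 and 0.70. Without both mutants with Xist, K14J28 and K14J29, 8 members were higher, as were 1400 of the 16740 genes tested, with 769 lower. When the muscle score of each embryo was a covariate, 1 member was called, Epg5, with 40 genes of all higher and 40 lower, the log2 fold changes of the 12 lay between 0.22 (Pik3r4) and 0.75 (Atg4c), the median over the members was 0.15, and 15 were higher at an unadjusted p of at most 0.05.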

How the data were processed

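RNA of pooled left and right lower molars from 4 control and 4 mutant embryos at E18.5 was made into poly(A) libraries with a kit that does not keep strand. Per the deposited files and the methods of the study, the authors trimmed single-end reads, aligned them to GRCm38 with STAR and deposited raw counts per Ensembl gene for each embryo, without normalization. The submitters' processing notes name GRCm38.p3, STAR and featureCounts, while the methods name GenomicRanges for counting, and versions were not given in the notes. Reads of genes that overlap on opposite strands cannot be told apart in such libraries.

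A gene was kept when 2 or more of the 4 embryos of either group had 10 counts or more, as in the methods of the study, leaving 17129 of 43629. Counts were scaled by trimmed mean of M values and compared with edgeR 4.0.16 in R 4.3.3 (quasi-likelihood test, mutant against control, no covariate), with Benjamini-Hochberg adjustment over all genes kept and a call at an adjusted p under 0.05. Symbols, positions and exon lengths came from GENCODE M21 on GRCm38, which matched 42462 of the 43629 identifiers. Promoter windows came from RefSeq on GRCm38.p6. CPM depend on the scaling factors, which were 1.033 to 1.043 in controls and 0.843 to 1.042 in mutants, lowest in K14J26, where enamel transcripts took the largest share of counts. Depth limits the precision of genes at a few counts, such as Atg9b, and intervals cover counting error and the spread between embryos through the fit.

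Members past the adjusted threshold or the study's criteria, the Atg8 genes and Sqstm1 are given with the value of every embryo, the others with their log2 fold changes, and from each pathway list up to 3 called genes in each direction by size. The values per embryo of Ulk1, Pik3c3, Vmp1, Atg10, Tax1bp1, Bnip3, Tfeb and Tfe3 are given beyond this rule, chosen after they were seen. The members and lists were chosen with earlier results of these data known, so no list was tested. Alternatives were relative log expression and library size scaling, DESeq2 1.42.0, no filter and a filter of 50 counts in 4 embryos, covariates for enamel, skeletal muscle and Xist levels, an adjusted p under 0.1, and leaving out each embryo. The script was tested on simulated data for mutant against control, with 200 changed genes of 16833, and recovered 89% of changes of 1 and 99% of changes of 2 on the log2 scale, while 6% of its calls were false. No 2 libraries of a group agreed within counting noise.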

Additional observations from a re-analysis of the deposited data

Results flagged for a closer look

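Of the 86 sets of 4 embryos (43 members in each group) 3 held an embryo far from the other 3, where chance flags about 1 in 20 sets. Wipi1, a reader of phosphatidylinositol 3-phosphate, was at 62.82 CPM in mutant K14J28 and between 77.45 and 77.76 CPM in the other mutants. Atg16l2 was at 6.758 CPM in control J5 and between 7.582 and 7.726 CPM in the other controls, all below the mutants. Gabarap was at 210.9 CPM in control J7 and between 231.7 and 235.9 CPM in the other controls.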

How the results depend on the processing

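With library size scaling in place of trimmed-mean scaling, 6 members were higher (of all genes 864 higher and 1065 lower), the median over the members was 0.07 and that over all genes -0.09, and the log2 fold changes of Ulk1 (-0.025), Atg101 (-0.018), Becn1 (-0.014), Wipi1 (-0.034), Wipi2 (-0.10), Atg7 (-0.041), Atg4b (-0.055) and Map1lc3a (-0.11) turned negative. With the enamel score as covariate, 2 members were higher and 1 lower, 1 was lower past the study's criteria, the median was 0.03, and the sign turned for Ulk1 (-0.24), Atg13 (-0.22), Atg101 (-0.024), Rb1cc1 (-0.021), Becn1 (-0.021), Atg14 (0.031), Wipi1 (-0.15), Wipi2 (-0.042), Atg7 (-0.10), Atg3 (0.068), Atg4b (-0.097), Map1lc3a (-0.54), Gabarap (-0.047) and Tax1bp1 (-0.15), none of them past the threshold without the covariate. The skeletal muscle covariate left 1 higher member (40 genes of all higher), with a median of 0.15 and log2 fold changes of the 12 from 0.22 to 0.75, and the Xist covariate gave a median of 0.23 and a log2 fold change of 0.071 for Map1lc3b. Wipi2 turned to -0.002 with relative log expression scaling, -0.003 in DESeq2, -0.001 without a filter and -0.011 with the stricter filter, where Map1lc3a was -0.002. At an adjusted p under 0.1, 19 members were higher and 1 lower. Chosen after seeing the data, leaving out J6 and J7 gave 0 higher members and a Jag1 log2 fold change of -1.18 (adjusted p = 0.114), and leaving out K14J28 and K14J29 gave 0.049 for Map1lc3b. The causes were not tested. Leaving out each embryo in turn gave 3 to 17 higher members (250 to 2479 genes of all higher), a median of 0.13 (without K14J26) to 0.22 (without K14J28), and ranges of -0.053 to 0.003 for Atg14, -0.014 to 0.018 for Wipi2, -0.16 to 0.13 for Map1lc3a, -0.053 to 0.054 for Map1lc3b and -0.008 to 0.17 for Ulk1. Relative log expression scaling (10 higher, of 1590 among 17129 genes), DESeq2 (13, of 2244 among 17129), no filter (9, of 1470 among 26748), the stricter filter (12, of 1554 among 13460), the Xist covariate (9, of 1510 among 17129) and leaving out K14J28 and K14J29 (8, of 1400 among 16740) stayed within 1.5 times the 12, and the 12 called members kept their sign in every fit. No paired analysis was possible because the groups share no replicate numbers.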
